A study of Mus musculus with 18 samples.

Results

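The genes described here are 32 genes of sterol and fatty acid synthesis, taken by symbol from the 24111 gene rows of a count table of mpkCCD cells. This immortalised mouse line resembles principal cells, the vasopressin-sensitive cells of the renal collecting duct. The list was drawn up by function, with earlier results of these data known. It holds 18 enzymes of the mevalonate and cholesterol pathway, 6 regulators of that pathway and 8 enzymes of fatty acid synthesis and desaturation. All 32 had a row in the count table and in the table of FPKM values.

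Cells were grown to confluence on permeable supports, in medium with 2% serum and with transferrin, selenium, epidermal growth factor, triiodothyronine, dexamethasone and insulin, and were kept without serum for 24 h before treatment. One group of 9 libraries then received 0.1 nM dDAVP (desmopressin, a vasopressin analogue selective for the V2 receptor) in serum-free medium for 24 h, and the other 9 libraries received serum-free medium alone (control). Both groups are the same line, called mpkCCD11 in the protocol, and the labels do not say whether replicates were separate cultures. The p-values therefore measure only the spread between these libraries, which may be technical.

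Cholesterol is built from acetyl-CoA through mevalonate, farnesyl diphosphate, squalene and lanosterol, and long-chain fatty acids are built from acetyl-CoA through malonyl-CoA and are then elongated and desaturated. Transcription of both pathways is driven by the sterol regulatory element binding proteins (SREBPs), which the chaperone Scap carries out of the endoplasmic reticulum when sterols are low and which Insig proteins hold back when sterols are plentiful. In collecting duct principal cells vasopressin raises cAMP and moves the water channel aquaporin-2 to the apical membrane, a membrane built of cholesterol and phospholipids.

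Libraries held 22.2 to 105.9 M counts. By replicate number they fall into 3 sets (1 to 3, 4 to 6 and 7 to 9), each with 3 dDAVP and 3 control libraries, and the labels do not say what distinguishes the sets. The TMM scaling factors, which correct library totals for composition, ran from 0.306 in dDAVP 6 to 3.16 in dDAVP 8, and dDAVP 6 had the fewest genes detected (10282). Aqp2, the known vasopressin target, was higher in each dDAVP library than in each control library of sets 1 to 3 and 4 to 6. In replicates 7 to 9 Aqp2 was 2764, 175 and 193 normalised CPM (counts per gene relative to the TMM-scaled library total) with dDAVP and 10.9, 37.3 and 252 in controls, so control 9 stood above dDAVP 8 and dDAVP 9; scaled by library totals only, Aqp2 was 3598, 551 and 530 CPM with dDAVP and 25.1, 49.8 and 291 in controls, which do not overlap. Cited1, a transcriptional co-activator chosen after its values were seen, was higher in each dDAVP library than in each control library of every set, with 4.80, 3.56 and 2.26 normalised CPM with dDAVP and 0, 0.695 and 0 in controls in replicates 7 to 9. Across the 31 members tested in the fits over all libraries, dDAVP 7 resembled control 8 (Pearson r = 0.956 of log2 CPM) more than dDAVP 8 (r = 0.766) or dDAVP 9 (r = 0.811); all genes tested gave 0.964, 0.790 and 0.829. By these correlations the libraries of replicates 7 to 9 did not group by treatment, although Cited1 parted by its label there, and results that rest on them are given beside those of the other sets. All 8 epithelial markers were detected in these cells, with a summed level of 2815 to 23605 normalised CPM with dDAVP and 2403 to 20704 in controls. Of the markers of adipocytes, a cell type rich in fatty acid synthesis genes, Adipoq, Plin1 and Cidec were at 0 counts in all libraries, and the summed level was at most 0.0905 normalised CPM with dDAVP and 0.313 in controls.

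The promoter sequences of 25 of the 32 members were found in RefSeq (GRCm38.p6), as windows from 250 bases before to 50 bases after the RefSeq start, and were searched on both strands for 6 motifs. Fdps, Fdft1, Sqle, Stard4, Scd1, Scd2 and Fads1 had no window and were not searched. The sterol regulatory element TCACNCCAC was in the window of 1 member, Hmgcs1, and in that of 1.44% of 27025 genes. The NF-Y box CCAAT, bound by a factor that acts together with SREBPs at sterol genes, was in 20 of 25 members (80.0%) and in 41.1% of genes. The GC box GGGCGG was in 21 members (84.0%) and in 38.2% of genes. The cAMP response element TGACGTCA was in 0 members and in 2.03% of genes, and its first part TGACG, which it contains, was in 9 members (36.0%) and in 23.0% of genes. The E-box form TCACGTGA was in 0 members and in 304 of 27025 genes. Its inner part CACGTG was not searched alone, and it stands in the Sc5d and Insig1 bases printed below. The 27025 genes are all symbols with a window, not chosen by gene type, whereas all members are protein-coding, so these shares are not a like comparison. Mvk held the most CCAAT boxes of the members, 5, against 4 in Hmgcs1 and in Nsdhl and 1 in each of Insig1 and Sc5d. The 250 bases before the RefSeq start are printed for a member of each branch that the results below turn on and for Hmgcs1. The sterol regulatory element and the NF-Y boxes (ATTGG where the box lies on the other strand) are in capitals, and the Fads2 window holds neither. RefSeq starts differ from the GENCODE gene starts used for positions below. By GENCODE, Fads2 starts at 10101746 and Insig1 at 28071363. Most of the printed Fads2 bases and the last printed Insig1 bases thus lie inside the GENCODE gene, and the region before that Fads2 start was not searched.
Hmgcs1, chr13:119690101-119690350, plus strand: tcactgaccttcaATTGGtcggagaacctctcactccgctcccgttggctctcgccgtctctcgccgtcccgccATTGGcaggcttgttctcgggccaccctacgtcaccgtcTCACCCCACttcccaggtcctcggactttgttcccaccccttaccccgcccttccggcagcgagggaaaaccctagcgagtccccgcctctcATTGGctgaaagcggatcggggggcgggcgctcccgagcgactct
Sc5d, chr9:42264301-42264550, minus strand: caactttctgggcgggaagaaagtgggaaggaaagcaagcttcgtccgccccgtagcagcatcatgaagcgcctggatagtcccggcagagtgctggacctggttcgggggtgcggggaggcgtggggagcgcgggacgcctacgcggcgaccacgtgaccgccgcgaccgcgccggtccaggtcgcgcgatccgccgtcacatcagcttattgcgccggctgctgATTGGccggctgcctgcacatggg
Insig1, chr5:28071162-28071411, plus strand: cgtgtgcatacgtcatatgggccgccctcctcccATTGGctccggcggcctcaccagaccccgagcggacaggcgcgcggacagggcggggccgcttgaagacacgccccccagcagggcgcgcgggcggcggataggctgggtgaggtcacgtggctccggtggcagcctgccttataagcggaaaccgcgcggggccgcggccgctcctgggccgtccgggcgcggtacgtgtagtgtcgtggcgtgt
Fads2, chr19:10101504-10101753, minus strand: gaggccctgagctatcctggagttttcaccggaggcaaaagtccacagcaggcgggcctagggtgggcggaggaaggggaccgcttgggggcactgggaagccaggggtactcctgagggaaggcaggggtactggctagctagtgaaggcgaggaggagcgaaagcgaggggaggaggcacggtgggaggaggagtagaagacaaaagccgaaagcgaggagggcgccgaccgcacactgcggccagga
A match is a description of letters in these windows and not of binding. The lack of a match to a fixed string likewise does not show that a gene lacks a site.

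The set of replicate numbers separated the members' levels more widely than treatment did. Of the 32 members, 16 had their highest mean in replicates 1 to 3, 6 in replicates 4 to 6 and 10 in replicates 7 to 9. The highest set mean was 1.48 to 443 times the lowest, with a median of 5.46 over the members and 5.61 over all 10121 genes tested. In 9 members all 6 libraries of replicates 1 to 3 lay above the other 12 (10.8% of all genes): Acat2, Fdps, Fdft1, Sqle and Hsd17b7 of the sterol pathway, and Acly, Scd2, Elovl6 and Fads1 of the fatty acid pathway. In bulk RNA of this kind fewer cells with a transcript and less transcript per cell cannot be told apart. In Insig1 and Sc5d all 6 libraries of replicates 4 to 6 lay above the rest (6.86% of all genes), and in Srebf2 those of replicates 7 to 9 (3.43%).

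**Figure D1:**
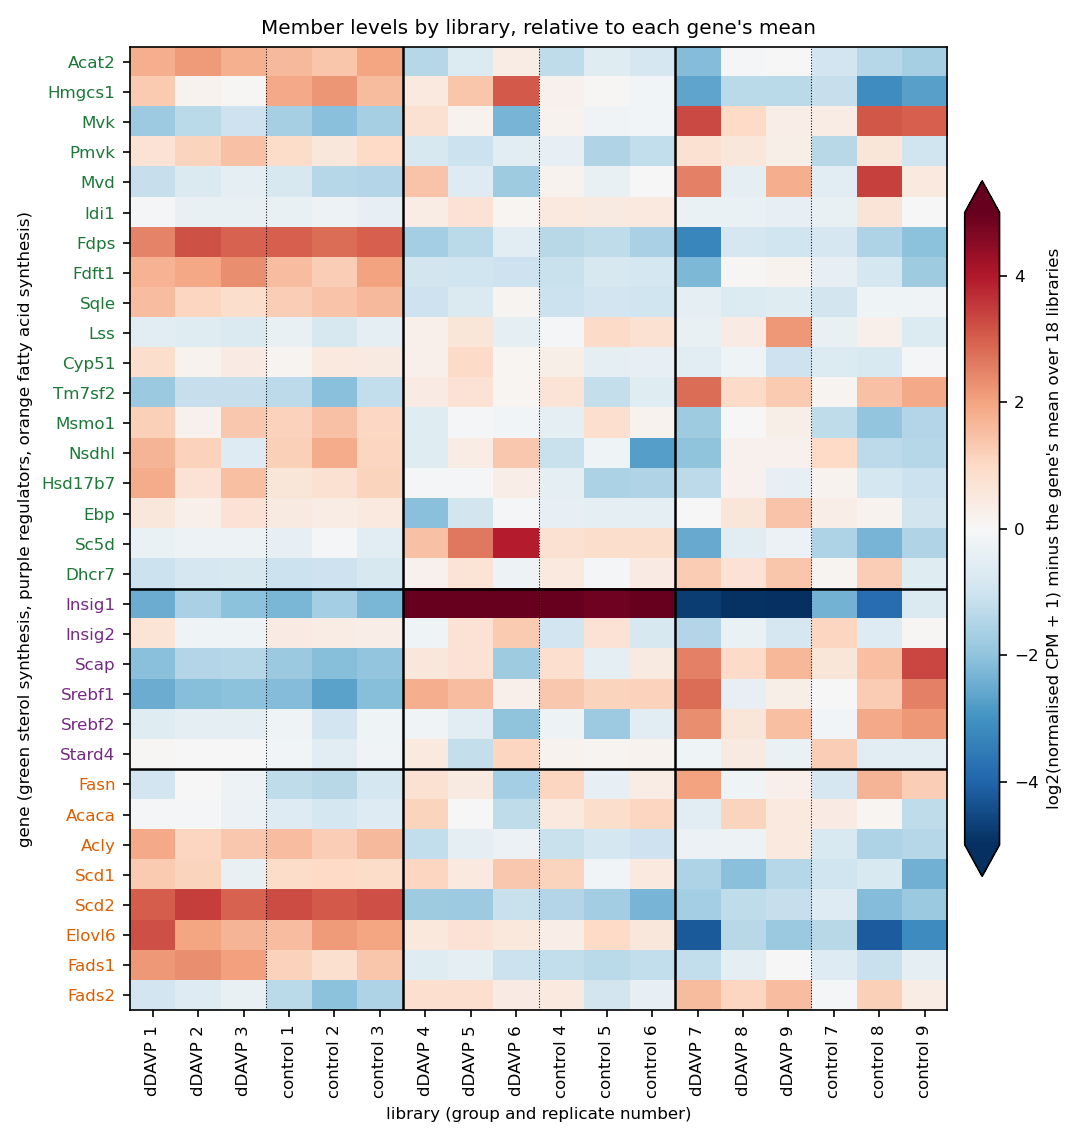
Level of each member in each library, as log2(normalised CPM + 1) minus the gene's mean over the 18 libraries, with dDAVP libraries left of controls in each of the 3 sets (solid vertical lines part the sets, dotted ones the groups). Blocks of colour follow the sets: Fdps and Scd2 are high in replicates 1 to 3, and Insig1 is beyond the top of the scale in replicates 4 to 6.

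Levels between genes were compared per length, on the FPKM scale. Averaged over the 18 libraries, the highest were Insig1 (715 FPKM), Fdps (463 FPKM) and Scd2 (441 FPKM), followed by Pmvk (54.1 FPKM), Fdft1 (53.2 FPKM) and Fads1 (51.4 FPKM). This order depended on the set: Insig1 had 1605 to 2574 FPKM in replicates 4 to 6 but 7.19 to 12.8 FPKM in replicates 1 to 3, where Fdps had 1076 to 1284 FPKM and Scd2 had 886 to 1340 FPKM. Idi1, the isopentenyl diphosphate isomerase, was lowest at 0.144 FPKM, with 1 to 121 counts per library. Idi1 failed the filter on low counts in the fits over all libraries and within replicates 1 to 3, so 31 members were tested there and all 32 within replicates 4 to 6 and 7 to 9.

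Among the sterol synthesis genes 0 of 17 tested were called in the comparison of all 18 libraries, with or without the set as a term in the model. Without covariates edgeR's quasi-likelihood test called 0 of 10121 genes (0.0%), with 218 (2.15%) at an unadjusted p under 0.05, among them 1 member, Sc5d. DESeq2 called 12 genes there (0.119%), limma voom with sample weights 11, and none of these was a member. With the set as a term, edgeR called 8 genes (0.079%), with 610 genes (6.03%) and 3 of 31 members (Fads1, Fads2 and Sc5d) at an unadjusted p under 0.05. In that fit all 17 sterol genes tested had a positive log2 fold change, at most 1.21, with a median of 0.33 beside 0.02 over all genes. These directions were not stable: 10 were positive and 7 negative with limma voom, where Hmgcs1 was -0.94 (adjusted p = 0.0989) in place of 0.40, and 13 were positive without replicates 4 to 6. The mean log2 differences within sets were negative for Mvk (-0.21) and Fdps (-0.01). Without covariates 12 were positive and 5 negative. Within replicates 1 to 3, 10 of 17 were positive, within 4 to 6 11 of 18 and within 7 to 9 11 of 18, with medians of 0.02, 0.27 and 0.47. Within replicates 1 to 3, 946 of 8991 genes (10.5%) and 4 members (Fads1, Fads2, Fasn and Hmgcs1) had an unadjusted p under 0.05. Within replicates 4 to 6 edgeR called 0 of 10387 genes (0.0%), with 479 genes (4.61%) and 2 members (Hmgcs1 and Sc5d) at an unadjusted p under 0.05; DESeq2 called 29 genes there, no member among them.

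**Figure D2:**
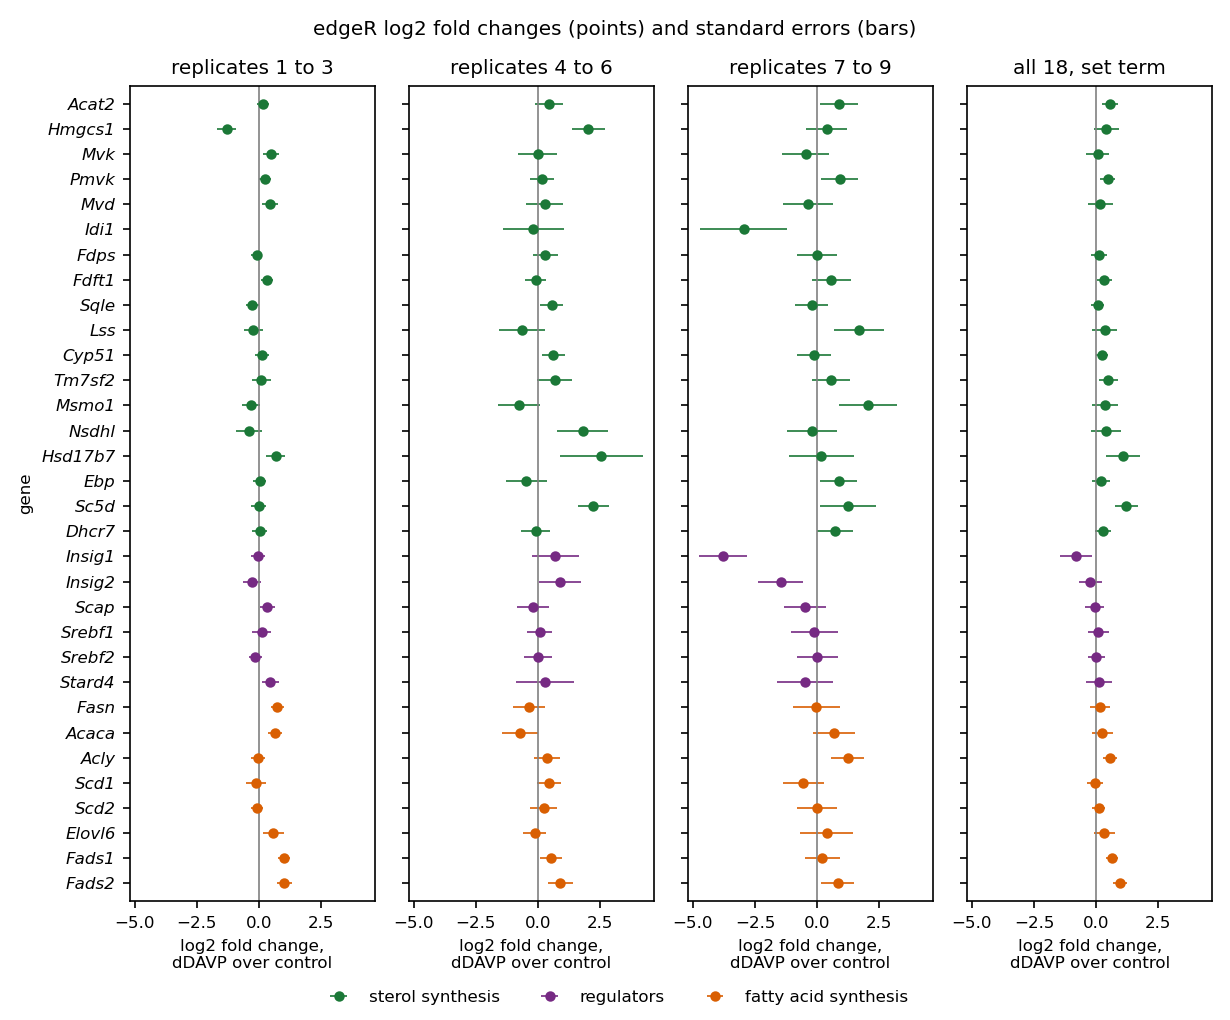
Log2 fold changes of dDAVP over control (points) with standard errors (bars) from edgeR, for each member, within each set of replicate numbers and over all 18 libraries with the set as a term. Standard errors are smaller in replicates 1 to 3 than in the other sets, and there Fads1 (1.00) and Fads2 (1.01) lie to the right of 0 and Hmgcs1 (-1.31) to the left; Hmgcs1 lies to the right in replicates 4 to 6 (2.02).

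Hmgcs1 encodes the cytosolic HMG-CoA synthase that condenses acetyl-CoA units ahead of mevalonate formation (chromosome 13, 119690379 to 119708260 in GRCm38, plus strand). In replicates 1 to 3 Hmgcs1 had 129, 57.9 and 52.7 normalised CPM with dDAVP, against 190.1, 237 and 156 in controls. Hmgcs1 in replicates 4 to 6 had 72.3, 136 and 439 with dDAVP, against 59.4, 53.0 and 46.3 in controls. The groups did not overlap in either set under TMM, and the order was opposite: dDAVP was lower in replicates 1 to 3 and higher in replicates 4 to 6. In replicates 7 to 9 Hmgcs1 had 7.45, 19.6 and 19.4 with dDAVP and 22.4, 5.08 and 6.88 in controls, which overlap. The edgeR log2 fold changes were -1.31 (SE 0.39, adjusted p = 0.267), 2.02 (SE 0.67, adjusted p = 0.999) and 0.38 (SE 0.81, adjusted p = 0.976) in the 3 sets. With the replicate number as a block, which called 101 of 8991 genes (1.12%) in replicates 1 to 3 in place of 41 (0.456%), Hmgcs1 fell by 1.46 on the log2 scale (edgeR adjusted p = 0.00888). It was also called by edgeR with no filter on low counts (-1.31, adjusted p = 0.0324) and without dDAVP 1, and not by DESeq2 (-1.32, adjusted p = 0.0528). The test of the difference between sets gave an unadjusted p of 0.00767 for Hmgcs1 and an edgeR adjusted p of 0.49.

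Scaling bore on the values of Hmgcs1 in both sets. With library totals only, Hmgcs1 in replicates 1 to 3 had 127, 37.5 and 36.7 CPM with dDAVP and 131, 193 and 125 CPM in controls, so that dDAVP 1 stood above control 3. In replicates 4 to 6 it had 47.4, 133 and 134 CPM with dDAVP and 32.5, 64.7 and 42.8 CPM in controls, which overlap, and its log2 fold change was 1.17 in place of 2.02. With that scaling the median log2 fold change of all genes was -0.38 in replicates 4 to 6, 0.54 in replicates 7 to 9 and 0.24 over all libraries without covariates, where TMM gave -0.03, -0.03 and 0.05. Over all libraries without covariates Hmgcs1 was 0.27 under TMM and -0.03 with totals only.

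Sc5d, the sterol C5-desaturase late in cholesterol synthesis (chromosome 9, 42251595 to 42264256, minus strand), had the lowest unadjusted p of the sterol genes with the set term. Its 3 dDAVP libraries of replicates 4 to 6 had 22.6, 51.8 and 126 normalised CPM, against 13.5, 14.5 and 14.6 in controls. In replicates 1 to 3 it had 5.81, 6.05 and 6.14 with dDAVP and 5.38, 7.12 and 4.87 in controls. In replicates 7 to 9 it had 0.457, 4.72 and 6.00 with dDAVP and 1.88, 0.695 and 1.99 in controls. The groups did not overlap in replicates 4 to 6, where dDAVP was higher, and overlapped in the other sets; with library totals only they overlapped in replicates 4 to 6 too (14.8, 50.8 and 38.6 CPM with dDAVP, 7.36, 17.7 and 13.5 in controls). The log2 fold change with the set term was 1.21 (SE 0.45, unadjusted p = 0.0139, edgeR adjusted p = 0.815), positive under each of the 15 other settings run (0.49 to 1.76, adjusted p from 0.264 to 1.00). The largest of the dDAVP values, like that of Hmgcs1, came from dDAVP 6, the library with the smallest scaling factor. Without dDAVP 6 the set-term log2 fold change of Sc5d was 0.89. With each library's trend on transcript GC content removed, Sc5d within replicates 4 to 6 was 1.75 in place of 2.22. Whether that library's composition bears on these values was not tested beyond these settings and the change of scaling.

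Fdps, the farnesyl diphosphate synthase, was the most abundant sterol gene by FPKM. In replicates 1 to 3 Fdps had 1538, 2503 and 2088 normalised CPM with dDAVP and 2181, 1872 and 2164 in controls. In replicates 4 to 6 it had 83.6, 107 and 187 with dDAVP and 104, 112 and 87.2 in controls, and in replicates 7 to 9 27.4, 153 and 135 with dDAVP and 152, 93.5 and 65.8 in controls. The groups overlapped in all 3 sets while the sets stood up to 19.7 times apart in their means. Its log2 fold change with the set term was 0.10 (SE 0.31, edgeR adjusted p = 0.977). Acat2, the cytosolic acetoacetyl-CoA thiolase, showed the same order of sets. It had 138 to 175 normalised CPM with dDAVP and 106 to 158 in controls in replicates 1 to 3, 14.3 to 51.3 and 16.0 to 26.0 in replicates 4 to 6, and 8.01 to 39.9 and 11.9 to 20.2 in replicates 7 to 9 (log2 fold change 0.54, SE 0.32, edgeR adjusted p = 0.856). Pmvk, phosphomevalonate kinase, had 75.0 to 128 with dDAVP and 66.8 to 91.9 in controls in replicates 1 to 3, 21.0 to 29.9 and 15.4 to 33.6 in replicates 4 to 6, and 56.0 to 76.8 and 16.6 to 69.2 in replicates 7 to 9 (0.46, SE 0.30, adjusted p = 0.856).

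Hsd17b7, a 3-ketosteroid reductase of the cholesterol pathway, was the remaining sterol gene whose groups did not overlap in a set under TMM, with 1.90, 1.81 and 2.75 normalised CPM in dDAVP libraries 4 to 6 and 1.13, 0 and 0.0592 in controls 4 to 6. A count of 0 in control 5 allows up to 0.0726 normalised CPM (3 counts), counting error only, so these are low levels, and their log2 fold change within the set did not pass (edgeR adjusted p = 0.999). The other sterol genes were Mvk (mevalonate kinase), Mvd (mevalonate diphosphate decarboxylase), Idi1, Fdft1 (squalene synthase), Sqle (squalene epoxidase), Lss (lanosterol synthase), Cyp51 (lanosterol demethylase), Tm7sf2 (sterol C14-reductase), Msmo1 and Nsdhl (enzymes of C4-demethylation), Ebp (sterol isomerase) and Dhcr7 (the last reductase to cholesterol). Their log2 fold changes with the set term lay between 0.05 (Sqle) and 0.49 (Tm7sf2), Idi1 untested, and under TMM their dDAVP and control libraries overlapped in each set. Mvk, which was 3.44 higher in replicates 7 to 9 than in replicates 1 to 3 (difference of mean log2(normalised CPM + 1)), had its highest values in dDAVP 7 (114), control 8 (97.6) and control 9 (91.9), across the treatment labels.

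Over all 31 members tested, the 3 dDAVP libraries lay above the 3 controls in 4 members in replicates 1 to 3 (Stard4, Acaca, Fads1 and Fads2; 7.11% of all genes), in 4 members in replicates 4 to 6 (Hmgcs1, Hsd17b7, Sc5d and Fads1; 5.28%) and in 1 in replicates 7 to 9 (Acly; 4.58%). They lay below in 1 member in replicates 1 to 3 (Hmgcs1; 6.93%), in 0 in replicates 4 to 6 (4.44%) and in 1 in replicates 7 to 9 (Insig1; 4.05%). Under TMM only Fads1 parted in the same direction in more than 1 set. With library totals only, a count added after the data were seen, dDAVP lay above control in 7 members in replicates 1 to 3 (Mvk, Mvd, Scap, Fasn, Acaca, Fads1 and Fads2; 10.3% of all genes), in 1 in replicates 4 to 6 (Hsd17b7; 1.48%) and in 3 in replicates 7 to 9 (Pmvk, Tm7sf2 and Fads2; 8.17%). It lay below in 0 members in replicates 1 to 3 (4.1%), in 0 in replicates 4 to 6 (5.82%) and in 1 in replicates 7 to 9 (Insig1; 1.81%). By that scaling Fads2, and not Fads1, parted in more than 1 set.

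Under TMM the dDAVP mean was the higher in all 3 sets in 2 of 8 fatty acid genes, Fads1 and Fads2, in 5 of 18 sterol genes (Acat2, Pmvk, Tm7sf2, Hsd17b7 and Sc5d) and in 0 of 6 regulators. No share over all genes was taken for this count, so it is a description only. With library totals only, Acat2 and Pmvk were lower with dDAVP in replicates 4 to 6 (ratios of means 0.80 and 0.85), while Mvd and Cyp51 were higher in each set. Fads1 and Fads2 encode the delta-5 and delta-6 desaturases that make long polyunsaturated fatty acids and are head-to-head neighbours on chromosome 19 with 81142 bases between their starts (Fads1 10182888 to 10196877, plus strand; Fads2 10062765 to 10101746, minus strand). In replicates 1 to 3 Fads1 had 543, 601 and 507 normalised CPM with dDAVP, against 267, 213 and 316 in controls. Fads1 in replicates 4 to 6 had 78.2, 86.3 and 56.3 with dDAVP, against 50.5, 47.3 and 50.3 in controls. In replicates 7 to 9 it had 51.0, 88.6 and 121 with dDAVP and 76.4, 55.1 and 85.7 in controls. Under TMM every dDAVP library was thus above every control in the first 2 sets, while the groups overlapped in replicates 7 to 9. With library totals only, Fads1 in replicates 4 to 6 had 51.2, 84.6 and 17.2 CPM with dDAVP and 27.6, 57.8 and 46.5 CPM in controls, so dDAVP 6 stood below all 3 controls, and the log2 fold change was 0.21 in place of 0.51.

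Fads2 ran the other way across the sets, being lowest in replicates 1 to 3, while its dDAVP mean was the higher in each set. It had 10.0, 12.6 and 15.8 normalised CPM with dDAVP and 7.58, 4.22 and 6.35 in controls in replicates 1 to 3. In replicates 4 to 6 it had 37.1, 38.0 and 27.5 with dDAVP and 29.3, 10.3 and 15.0 in controls, and in replicates 7 to 9 63.5, 44.8 and 62.3 with dDAVP and 19.3, 48.2 and 26.8 in controls. The groups were apart in replicates 1 to 3 and overlapped by 1 control library (4 and 8) in each other set. By library totals only they were also apart in replicates 7 to 9, while in replicates 4 to 6 Fads2 had 24.3, 37.2 and 8.43 CPM with dDAVP and 16.0, 12.6 and 13.9 CPM in controls, so dDAVP 6 stood below all 3 controls.

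**Figure D3:**
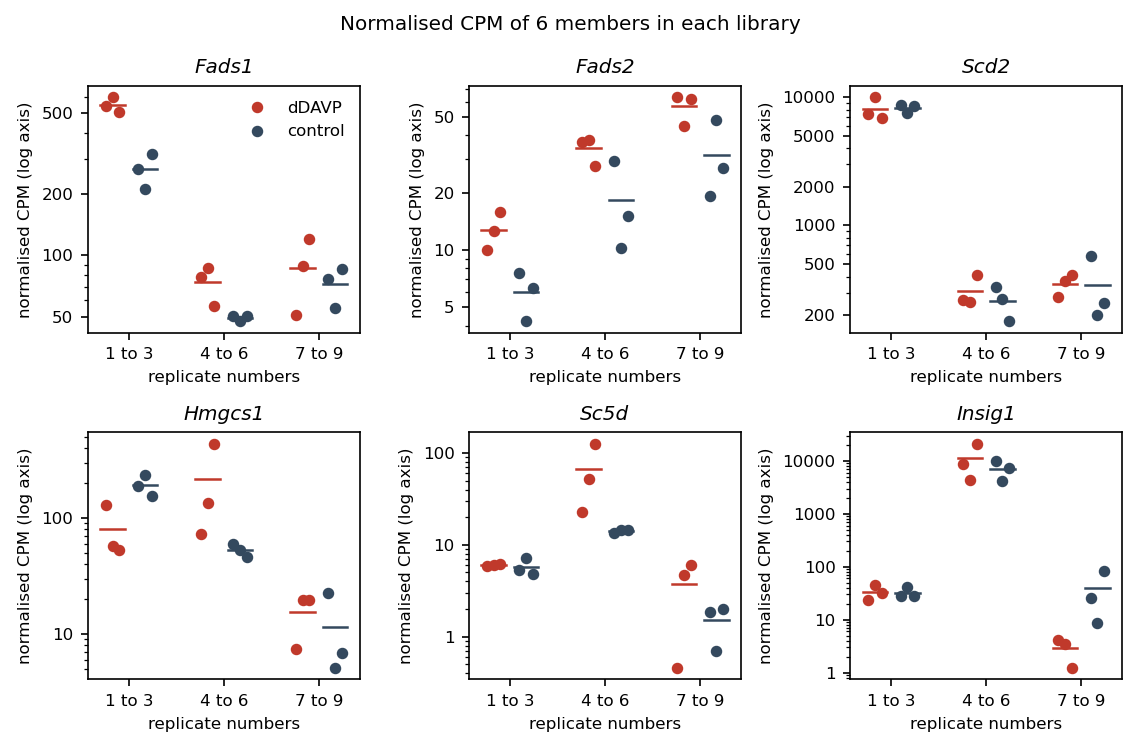
Normalised CPM (log axis) of 6 members in every library, by set of replicate numbers, with dDAVP (red) left of control (dark) and a bar at each mean (n = 3). Fads1 and Fads2 show a higher mean with dDAVP than in controls in each set, Hmgcs1 changes order between replicates 1 to 3 and 4 to 6, and Insig1 lies between 4088 and 21064 in replicates 4 to 6 and between 1.23 and 82.0 elsewhere.

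With the set term the log2 fold change was 0.95 for Fads2 (SE 0.28, unadjusted p = 0.00234, edgeR adjusted p = 0.527) and 0.63 for Fads1 (SE 0.25, unadjusted p = 0.0203, edgeR adjusted p = 0.815). Neither was called by edgeR. Limma voom with sample weights, which called 118 genes (1.17%) in the same design, called both, with 0.94 for Fads1 (adjusted p = 0.000752) and 0.99 for Fads2 (adjusted p = 0.0178). Within replicates 1 to 3 the edgeR values were 1.00 (SE 0.23, adjusted p = 0.106) and 1.01 (SE 0.30, adjusted p = 0.276) for Fads1 and Fads2. There Fads1 was called by DESeq2 (1.00, adjusted p = 0.0182; 123 genes called, 1.37%) and by edgeR without a filter (0.99, adjusted p = 0.0354; 207 genes called, 1.52%), but not with the replicate number as a block (1.00, adjusted p = 0.0698). Fads1, Fads2, Fasn and Hmgcs1 were called in that set when dDAVP 1 was left out, a fit that called 774 genes (8.31%). Exact two-sided permutation of the labels within the sets, over 8000 regroupings, gave p = 0.001 for Fads2 and p = 0.005 for Fads1, which adjusted over 10121 genes became 0.307 and 0.473. By that test 743 genes (7.34%) and 5 members had an unadjusted p under 0.05. The smallest p that this permutation can give is 0.00025. Cited1 was at that value and still had an adjusted p of 0.211. The adjusted p-values of this test therefore do not decide whether Fads1 or Fads2 changed.

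Acly, the ATP citrate lyase that supplies cytosolic acetyl-CoA to both branches, had 28.5, 29.4 and 48.8 normalised CPM with dDAVP and 19.9, 11.4 and 12.4 in controls in replicates 7 to 9, where the groups did not overlap. In replicates 4 to 6 it had 14.2, 25.4 and 28.1 with dDAVP and 15.7, 18.7 and 16.6 in controls, and in replicates 1 to 3 131, 74.0 and 90.7 with dDAVP and 105, 83.1 and 111 in controls. The groups thus parted in 1 set of 3 under TMM and in none with library totals only, where dDAVP 7 (37.0 CPM) stood below control 7 (46.1 CPM). The set-term log2 fold change of Acly was 0.56 (SE 0.28, edgeR adjusted p = 0.816). By limma voom with sample weights in the same design it was -0.06 (adjusted p = 0.924). Within replicates 4 to 6 it was 0.36 under TMM and -0.13 with library totals only.

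Fasn, the fatty acid synthase, and Acaca, the acetyl-CoA carboxylase that makes its malonyl-CoA, gave values of opposite order in different sets. Fasn had 111, 216 and 179 normalised CPM with dDAVP and 89.8, 81.1 and 117 in controls in replicates 1 to 3 (log2 fold change 0.73, SE 0.25, edgeR adjusted p = 0.360), 371, 294 and 66.1 with dDAVP and 460.4, 164 and 282 in controls in replicates 4 to 6, and 884, 186 and 256 with dDAVP and 121, 703 and 504 in controls in replicates 7 to 9. Acaca had 5.90, 5.93 and 5.02 with dDAVP and 3.73, 3.01 and 3.69 in controls in replicates 1 to 3, and its log2 fold changes in the 3 sets were 0.64, -0.73 and 0.66, none of them called. Scd2, a stearoyl-CoA desaturase and the most abundant gene of the branch by FPKM, had 7422, 9994 and 6931 normalised CPM with dDAVP and 8677, 7539 and 8480.2 in controls in replicates 1 to 3. It had 255 to 410.0 with dDAVP and 179 to 329 in controls in replicates 4 to 6, and 276 to 408 and 199 to 580.3 in replicates 7 to 9. It took 0.624% of all counts in replicates 1 to 3, and its groups overlapped in each set (set-term log2 fold change 0.09, SE 0.27, edgeR adjusted p = 0.977). Scd1, its paralogue next to it on chromosome 19 and similar enough in sequence that some reads may be shared, and Elovl6, the elongase of long-chain fatty acids, had -0.06 (SE 0.33) and 0.31 (SE 0.42).

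Within replicates 1 to 3 the median log2 fold change of the 8 fatty acid genes was 0.61, beside 0.02 for the sterol genes, 0.03 for the regulators and -0.01 for all genes, with 5 of the 8 positive. In replicates 4 to 6 and 7 to 9 the fatty acid median was 0.29 and 0.29. With the set term 7 of 8 were positive and the median was 0.28, which became 0.57 without replicates 4 to 6. These are descriptions of the list, with 0 of 8 called by edgeR in any of these comparisons under TMM with the filter on low counts and all libraries of the comparison.

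The regulators did not move as a group: with the set term 2 of 6 had a positive and 4 a negative log2 fold change (median -0.04). Insig1, which retains Scap and SREBP in the endoplasmic reticulum and is itself an SREBP target (chromosome 5, 28071363 to 28078662, plus strand), differed between sets more than any other member. In replicates 4 to 6 it had 8805, 4333 and 21064 normalised CPM with dDAVP and 10028, 4088 and 7375 in controls. In replicates 1 to 3 it had 23.6, 44.3 and 32.4 with dDAVP and 27.7, 41.9 and 27.8 in controls. The mean of replicates 4 to 6 was 443 times that of replicates 7 to 9, and by the ratio of that set to the higher of the other sets Insig1 ranked 38th of 10121 genes (ratio 274). Insig1 ranked 31st among all genes by mean normalised CPM in replicates 4 to 6, with 0.559% of counts and 1605 to 2574 FPKM, and 2367th in replicates 1 to 3. Counts of Insig1 were 151214 to 249082 per library in replicates 4 to 6 and 246 to 5822 elsewhere. The high level was shared by all 3 dDAVP and all 3 control libraries, and what set it apart was not tested. Its paralogue Insig2 had set means no more than 1.48 times apart.

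In replicates 7 to 9 Insig1 had 4.13, 3.52 and 1.23 normalised CPM with dDAVP, against 25.9, 8.80 and 82.0 in controls. All 3 dDAVP libraries lay below all 3 controls, under TMM and also with library totals only (5.37, 11.1 and 3.38 CPM with dDAVP, 60.0, 11.8 and 94.6 CPM in controls), where dDAVP 8 and control 8 are nearly equal. The log2 fold change was -3.77 (SE 0.97, unadjusted p = 0.0017, edgeR adjusted p = 0.646). DESeq2 gave -3.78 with an adjusted p of 0.00729, 1 of 94 genes it called (0.827%), while edgeR called 0 of 11367 genes and had 590 (5.19%) at an unadjusted p under 0.05, Insig1 alone among the members. In replicates 1 to 3 and 4 to 6 its edgeR log2 fold changes were -0.05 (SE 0.29) and 0.69 (SE 0.96), and in replicates 4 to 6 it was -0.07 with library totals only. The difference between sets, tested as an interaction of set and treatment, gave an unadjusted p of 0.000739 and an adjusted p of 0.405 by edgeR, which called 0 of 10121 genes and had 671 (6.63%) and 3 members (Insig1, Hmgcs1 and Msmo1) at an unadjusted p under 0.05. DESeq2 called Insig1 in that test (adjusted p = 0.0109), 1 of 104 genes (1.03%).

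Srebf2, which encodes the SREBP that drives sterol genes, had 33.9, 37.8 and 37.3 normalised CPM with dDAVP and 45.0, 26.4 and 44.8 in controls in replicates 1 to 3. It had 46.9, 35.1 and 12.2 with dDAVP and 43.5, 14.1 and 35.0 in controls in replicates 4 to 6, and 266, 79.9 and 152 with dDAVP and 47.9, 197 and 236 in controls in replicates 7 to 9. The groups overlapped in each set, and the set-term log2 fold change was -0.01 (SE 0.34, edgeR adjusted p = 0.999). Insig2, the second Insig, had 4.60 to 9.34 with dDAVP and 7.16 to 7.58 in controls in replicates 1 to 3, 4.52 to 14.9 and 2.32 to 9.53 in replicates 4 to 6, and 1.32 to 4.12 and 3.13 to 12.6 in replicates 7 to 9 (-0.24, SE 0.46, adjusted p = 0.970). Srebf1, which encodes the SREBP isoforms tied to fatty acid genes, Scap, and Stard4, a cytosolic cholesterol carrier, had set-term log2 fold changes of 0.09 (SE 0.41), -0.07 (SE 0.39) and 0.11 (SE 0.52). Srebf1 had 0.791 to 1.75 normalised CPM over the libraries of replicates 1 to 3 and 7.55 to 77.1 over the others. Of the fatty acid genes, Scd1, Scd2, Fads1, Elovl6 and Acly had their highest mean in replicates 1 to 3, where Srebf1 had its lowest, and Fasn, Acaca and Fads2 had their lowest mean there.

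The differences between replicates 7 to 9 and 1 to 3 ran with the GC content of the transcripts. Over the 31 members tested, the difference of mean log2 level between replicates 7 to 9 and 1 to 3 correlated with the GC content of the transcript at Pearson r = 0.651 (Spearman rho 0.596), and over 9706 genes at 0.629 (rho 0.655); genes in a library share its preparation and are not independent. Between replicates 4 to 6 and 1 to 3 the relation was weaker: the members gave 0.146 (rho 0.207) and all genes 0.133 (rho 0.217). Of the members, Hmgcs1 (43.1%), Sc5d (42.9%) and Elovl6 (44.0%) were poor in GC, and Mvk (59.6%), Mvd (59.3%), Scap (59.1%), Srebf1 (58.4%) and Srebf2 (57.9%) were rich. The 16 members above the median of 50.3% stood above the 16 others by 3.26 in dDAVP 7, 2.85 in control 8, 2.36 in dDAVP 9, 2.22 in control 9, 1.56 in dDAVP 8 and 0.83 in control 7 (mean log2(normalised CPM + 1)). In dDAVP 6 they stood below by 1.37, the lowest of all 18 libraries. These orders cross the treatment labels.

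**Figure D4:**
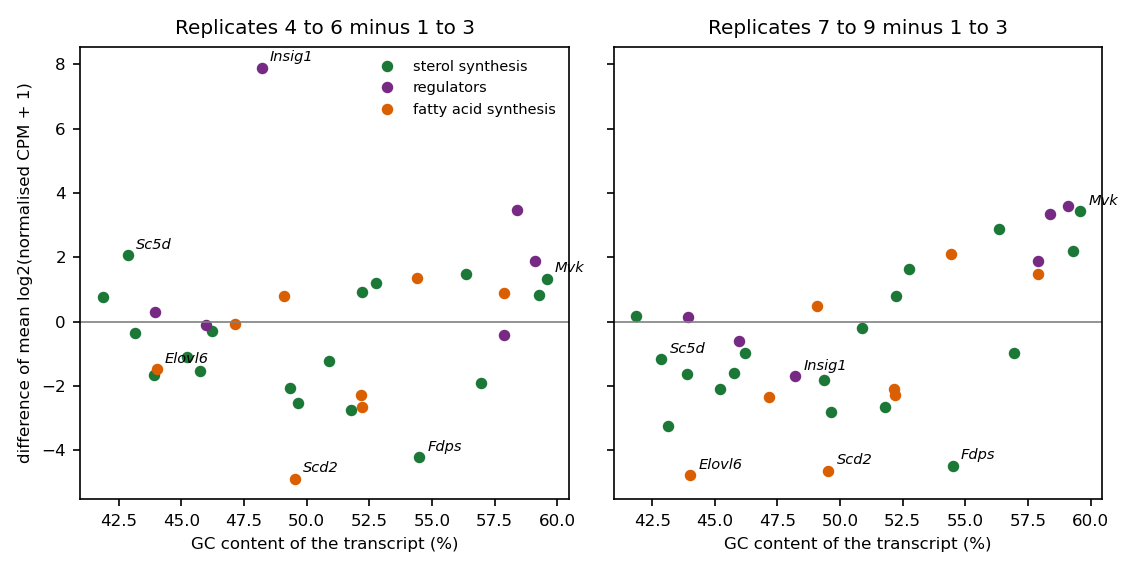
Difference of mean log2(normalised CPM + 1) between sets of 6 libraries against the GC content of each member's transcript, for replicates 4 to 6 minus 1 to 3 (left) and 7 to 9 minus 1 to 3 (right). On the right GC-rich members such as Mvk lie above 0 and most GC-poor members below (r = 0.651); on the left Insig1 stands apart at 7.90.

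The dDAVP differences ran with GC content as well in replicates 1 to 3 and, with the opposite sign, in replicates 4 to 6, but not in replicates 7 to 9. Over the members r was 0.40 in replicates 1 to 3, -0.497 in replicates 4 to 6 and 0.0319 in replicates 7 to 9, beside 0.41, -0.261 and 0.008 over all genes. With the trend of each library on GC content removed, a setting added after the data were seen, the log2 fold changes of Hmgcs1 were -1.06 in replicates 1 to 3 (edgeR adjusted p = 0.0785) and 1.50 in replicates 4 to 6, opposite in sign as before. Those of Fads2 and Fads1 with the set term were 0.91 (edgeR adjusted p = 0.122) and 0.51 (edgeR adjusted p = 0.580), that of Sc5d 1.31 (adjusted p = 0.264), and Fads1 in replicates 7 to 9 was -0.15 in place of 0.20. Insig1 in replicates 7 to 9 was -3.76. No member was called with the trend removed.

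Neighbouring genes were given by 5 lists of related function. In the set-term fit edgeR called 0 of the 55 genes tested (0.079% of all genes), and 5 of 55, among them Soat1, Acsl5, Rnf139 and Prkaa1, had an unadjusted p under 0.05 (6.03% of all genes). Of 10 other isoprenoid and sterol genes tested, 6 had a positive log2 fold change (median 0.16), with 0.63 for Tmem97, a sterol-responsive membrane protein, and -0.87 for Pdss1, which makes the ubiquinone side chain. Of 7 further genes of SREBP and Insig turnover, 2 were positive (median -0.17), with -0.77 for the ubiquitin ligase Rnf139 and -0.98 for Mbtps2, the site-2 protease that releases SREBPs. Of 8 genes of cholesterol transport and storage, 5 were positive (median 0.33), with 0.40 for the carrier Stard3. Of 20 other fatty acid and glycerolipid genes 12 were positive (median 0.14), with 0.76 for the acyl-CoA synthetase Acsl5 and 0.71 for Dgat2, which completes triglyceride synthesis. Of 10 genes of AMPK and fatty acid oxidation 7 were positive (median 0.20), with -1.07 for Prkaa1, a catalytic AMPK subunit.

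Soat1, which esterifies cholesterol for storage, had the lowest unadjusted p of these lists. It had 6.41, 5.87 and 4.79 normalised CPM with dDAVP and 2.32, 3.69 and 1.89 in controls in replicates 1 to 3, and 599, 1134 and 3729 with dDAVP and 266, 346 and 564 in controls in replicates 4 to 6. In replicates 7 to 9 it had 0.363, 5.17 and 0.929 with dDAVP and 0.0208, 0.371 and 0.944 in controls. Under TMM the groups parted in the first 2 sets and overlapped in the third; with library totals only they overlapped in replicates 4 to 6 too, where dDAVP 4 stood below control 5 (423 CPM) and control 6 (521 CPM). Soat1 was high in replicates 4 to 6 in both groups: its lowest library there, at 266 normalised CPM, stood above the highest elsewhere, at 6.41. The set-term log2 fold change was 1.88 (SE 0.53, unadjusted p = 0.00183, edgeR adjusted p = 0.476).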

How the data were processed

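RNA sequencing libraries of mpkCCD cells, 9 with dDAVP and 9 control, were grouped by the treatment and number in the labels. Libraries started from 20 ng of RNA and were read as single-end 50-bp sequences, per the labels' protocols, which name an Ovation ultralow-input kit and a single-cell method without assigning libraries to them. The submitters' processing notes give mm10, HTSeq, SAMtools and STAR 2.4.0.1. Annotation release, strand setting and filters are not given in the sources used here, so antisense overlaps make some counts uncertain. In the deposited count table are the authors' raw counts per gene symbol. The deposited FPKM table holds the authors' FPKM values, which were used for levels between genes.

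The members and all gene lists were chosen with earlier results of these data known, so no list was tested as a set. The main tests were edgeR 4.0.16 quasi-likelihood fits on the counts (TMM, filterByExpr, two-sided, Benjamini-Hochberg adjusted p under 0.05 over all genes tested): all 18 libraries without covariates, with the set of replicate numbers as a term, within each set, and the set by treatment interaction. Single genes were also tested by two-sided exact permutation of mean log2(normalised CPM + 1) within sets; adjusted p-values were Benjamini-Hochberg. SE is the log2 fold change over the square root of F. Other settings were RLE size factors, library totals only, DESeq2 1.42.0, limma 3.58.1 voom with sample quality weights, limma on log2(FPKM + 0.1), no filter or at least 1 CPM in 9 libraries, the replicate number as a block, and libraries left out. Added after the data were seen were a GC-trend correction, both libraries numbered 7, 8 or 9 left out, and library totals only in the within-set and interaction fits and in the counts of groups that do not overlap. The scripts were tested on simulated data. There edgeR recovered 10% of 2-fold and 63.8% of 4-fold changes with the set term, and 0% and 10.4% without covariates. Within replicates 1 to 3 it recovered 6.12% and 83.3%, and within replicates 4 to 6 4.08% and 12.2%. Within replicates 7 to 9 it recovered 0% of 2-fold, 4-fold and 8-fold changes and 8.16% of 16-fold changes. A gene that was not called may therefore still have changed by such amounts.

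All 32 members are named by rule; values in every library are given for those called in any fit and, in each branch, for the 2 with the lowest unadjusted p in the set-term fit and the 2 with the highest mean FPKM; Hsd17b7, Acly, Fasn, Acaca, Mvk and Soat1 values were added after they were seen. Of neighbouring lists the called genes, or else the 2 with the lowest unadjusted p, are named, except 1 that is not reported here. Gene positions and transcript GC content came from GENCODE M21 (GRCm38, the same assembly as mm10) and matched 95.9% of the genes tested; promoter windows came from RefSeq. The count table has 27 symbols turned into dates by spreadsheet software, none of them a member. For a count of 0 the floor is 3 counts; it covers counting error only, and reads lacking molecular identifiers are not independent molecules. Chi-square per degree of freedom was at least 53.1 between any 2 libraries of a group, so none was taken as a duplicate.

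The labels number libraries 1 to 9 in both groups. Deviations from the group means correlated between same-numbered libraries, across genes, at 0.398 to 0.926, but after removal of the set and group means at -0.706 to 0.43, so the agreement came from the sets. The block is an alternative, given beside a result where it changes a call. Computing used Python 3.11.15 with matplotlib 3.10.9, scipy 1.17.1, pandas 2.3.3 and numpy 2.4.6, and R 4.3.3.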

Additional observations from a re-analysis of the deposited data

Results flagged for a closer look

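Of 64 groups checked (the 9 dDAVP and the 9 control libraries of each member), 3 held a library whose gap to the next was a larger share of the group's range than Dixon's test allows for 9 values. Chance flags about 1 in 20 groups when the values come from 1 normal distribution. Each group here pools 3 sets with different means, so that rate does not apply and the flags are descriptions only. Lss, lanosterol synthase, was 13.8 normalised CPM in dDAVP 9, the highest of the dDAVP libraries (gap 0.537 of the range). Mvd, mevalonate diphosphate decarboxylase, was 155 normalised CPM in control 8, the highest control (gap 0.596). Stard4, the cholesterol carrier, was 5.70 normalised CPM in control 7, the highest control (gap 0.588). All 3 libraries belong to replicates 7 to 9.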

How the results depend on the processing

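Over all libraries without covariates edgeR called 0 genes, DESeq2 12, limma voom with sample weights 11, limma on log2 FPKM 2 and the replicate block 1; no other planned or added setting called any, and leaving out each library in turn gave 0 to 1. With the set term the count of 8 became 31 with DESeq2, 118 with limma voom, 5 with library totals only, 4 with FPKM, 1 with the replicate block, 4 without both libraries numbered 8, 0 without replicates 1 to 3, 0 without replicates 4 to 6, and 4 to 9 with single libraries left out, 4 being without dDAVP 8. Within replicates 1 to 3 the 41 became 123 with DESeq2, 207 with no filter, 101 with the replicate block, 68 with the GC trend removed, and 13 to 774 with single libraries left out (774 without dDAVP 1; 13, 14, 15 and 24 without control 2, control 1, control 3 and dDAVP 2). Within replicates 4 to 6 the 0 became 29 with DESeq2, 1 with no filter, 2 with the GC trend removed, 1 with library totals only and 0 to 2 with single libraries left out, 2 being without dDAVP 6. Within replicates 7 to 9 the 0 became 94 with DESeq2, 30 with no filter, 3 with the replicate block, 7 with library totals only and 0 to 98 with single libraries left out, 98 being without dDAVP 7. The interaction count of 0 became 104 with DESeq2 and 0 to 45 with single libraries left out, 45 being without dDAVP 7.

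With single libraries left out the set-term log2 fold changes were 0.86 to 1.10 for Fads2, 0.55 to 0.69 for Fads1 and 0.89 to 1.35 for Sc5d, 0.89 being without dDAVP 6. Over the 15 other settings they were 0.87 to 1.11 for Fads2 and 0.42 to 0.94 for Fads1. The lowest Fads1 value, 0.42 (edgeR adjusted p = 0.980), was without replicates 1 to 3. The branch medians were 0.18 to 0.41 for sterol genes, -0.23 to 0.06 for regulators and 0.16 to 0.41 for fatty acid genes. Without replicates 1 to 3 the sterol median was 0.53, without replicates 4 to 6 the fatty acid median was 0.57, and without replicates 7 to 9 the regulator median was 0.28, so the sign of the regulators was not stable. The causes of these changes were not tested. Idi1, Hsd17b7 and Lss rest on low counts in some libraries, and the scaling factors, which ran from 0.306 in dDAVP 6 to 3.16 in dDAVP 8, limit any comparison of levels in replicates 4 to 9.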
